A study of Mus musculus with 8 samples.

Results

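Left ventricles of 2 mice with heart-specific expression of placental growth factor (PlGF) were compared with those of 3 control mice on gene arrays, 1 array per heart. A gene was taken for description if both PlGF arrays lay outside the range of the 3 control arrays by at least 0.5 on the log2 scale, which was the case for 402 of 19933 measured genes. Of these, 337 lay above the control range (1.69% of all genes) and 65 lay below it (0.326%). The measured values themselves chose these genes, so their differences are given as a description. A gene past this gap is also more likely to pass a test on the same 5 arrays, and that test is no separate support for it.

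All mice were of the strain C57/Bl6 and 11 weeks old. In the PlGF mice, a PlGF transgene was switched on by the transactivator tTA, which the cardiomyocyte promoter αMHC drives (TET-OFF). Doxycycline in the diet kept the transgene silent until 5 weeks of age, and normal chow then allowed 6 weeks of expression. The controls were littermates that had inherited 1 transgene, either the driver or the responder, and the sources used here do not say which control carried which. A further group of 3 mice, labelled PlGF/RGS4, carried a responder for PlGF together with RGS4 (a protein that shortens G protein signalling), with the same driver, age and schedule. Its values are given beside the others, and both comparisons use the same 3 controls.

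PlGF, encoded by Pgf, is a ligand of the VEGF family that binds the receptor Flt1. It acts on blood vessels and also attracts monocytes, which carry Flt1. Interferon gamma, made by T cells and natural killer (NK) cells, acts in part through interferon regulatory factors (IRFs). Its known targets include GTPases that attack intracellular microbes, the chemokines Cxcl9 and Cxcl10 that draw in more T cells, and the genes of antigen presentation. In whole ventricle, more cells of a type and more RNA per cell cannot be told apart, and the same holds for fewer cells and less RNA.

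Each level below is a deposited intensity, in the order control replicates 1, 2 and 3, PlGF replicates 1 and 2, and the arrays labelled PlGF/RGS4, replicates 1, 2 and 3. Differences are in log2 of the intensity plus 1. The level of one probe set cannot be set against that of another. Pgf read 211.1, 348.9 and 387.1 in control, 4136.3 and 916.6 in the PlGF hearts, and 300.0, 229.0 and 210.8 on the arrays labelled PlGF/RGS4. Both PlGF hearts were above all controls, with a difference of 2.67 ± 0.58 (SE; limma adjusted p = 0.0601), whereas the arrays labelled PlGF/RGS4 were not, which goes against their label. Rgs4 lay between 186.9 and 281.5 on all 8 arrays. The array medians were 111.1 to 115.15. PlGF replicate 1 stood apart from the rest, with a mean correlation of 0.974 with the arrays of the other groups, against 0.9906 to 0.993 for the other 7 arrays. Xist, an RNA of the inactive X, was low on 3 arrays, 1 in each group (control replicate 2, PlGF replicate 1 and PlGF/RGS4 replicate 2).

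PlGF replicate 1 was the more distant heart for 328 of the 337 higher genes and for 56 of the 65 lower genes. The median difference of the higher genes from the control mean was 1.98 in replicate 1 and 0.93 in replicate 2, that is, 3.95-fold and 1.90-fold. For the lower genes the medians had a size of 1.33 and 0.82, or 2.52-fold and 1.77-fold. Replicate 2 was the more distant one for Aplnr, B3galt2, Cd2, Cxcl11, Igha, Ly6i, Ncr1, Nova1 and Zfp346 among the higher genes. Among the lower genes it was for Acer2, Depp1, Dusp1, Glt28d2, Per1, Shisa6, Slc10a6, Slc2a12 and Tmem150c. Both PlGF hearts departed from control in the same direction, which the choice of genes fixes, and to different extents.

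**Figure D1:**
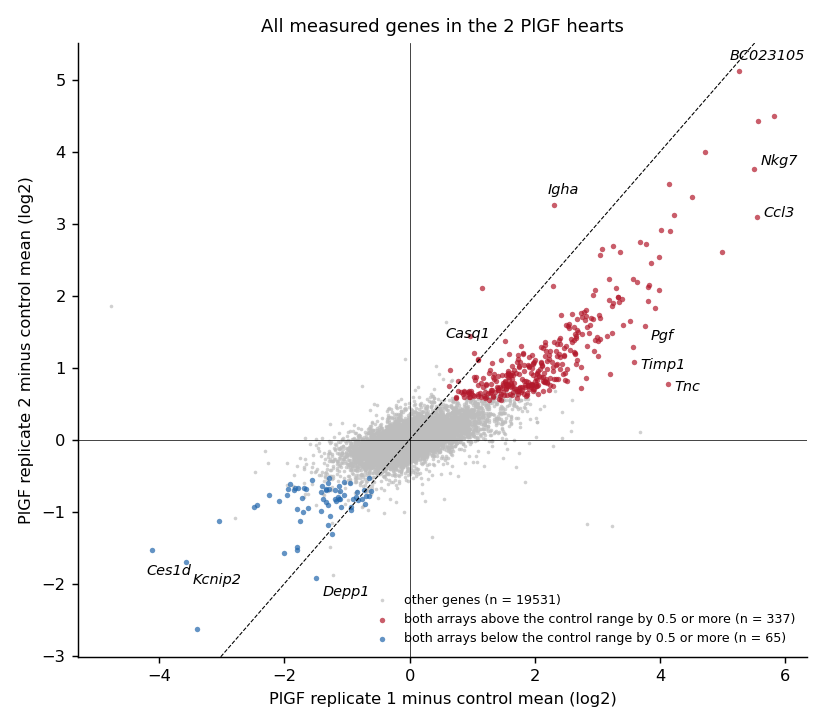
Difference of each of 19933 genes from the control mean in PlGF replicate 1 (horizontal axis) and PlGF replicate 2 (vertical axis), both in log2. Each point is a gene, red points are the 337 genes above and blue points the 65 genes below the control range by 0.5 or more, and the dashed line marks equal differences. Most coloured points lie nearer to the horizontal axis than the dashed line does, since replicate 1 was farther from control for 328 higher and 56 lower genes.

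In the limma fit to all 8 arrays, 356 genes were higher in PlGF than in control (1.79% of 19933) and 149 were lower (0.748%) at a Benjamini-Hochberg adjusted p under 0.05; such genes are said to have risen or fallen. Of the 337 genes above the gap, 235 rose, and of the 65 below it, 29 fell. Without PlGF replicate 1, 231 of the 337 and 21 of the 65 were called, and without PlGF replicate 2, 336 and 55 were. The counts depended on the fit. With only the 2 groups compared, limma called 0 genes in either direction (unadjusted p under 0.05: 1528 higher, 1581 lower), array weights left 126 higher and 5 lower, and the replicate block left 25 and 2. They also moved with single arrays. Leaving out 1 array at a time gave 16 to 2820 higher and 1 to 3101 lower genes, and the count of higher genes was 48 or less without any 1 of the control or PlGF/RGS4 arrays, 295 without PlGF replicate 1 and 2820 without PlGF replicate 2. With each array centred on its median, 376 genes were higher and 317 lower, against 356 and 149. In the arrays labelled PlGF/RGS4, limma called 3 genes higher than control (0.0151%) and 0 lower (0%), with 547 and 454 at an unadjusted p under 0.05. The 2 genes just inside the gap were Ubash3b (gap 0.503) and Map4k1 (0.502) above, and Pde1c (0.507) and Drd2 (0.501) below. Just outside were Rasal3 (0.499) and Calhm6 (0.498) above, and Angpt1 (0.498) and Kcna5 (0.490) below. Besides the genes with the widest gaps in each direction and in each list, the following were named after their values were seen. They are Acod1, Adgre1, B2m, Cbr2, Ccl2, Ccr2, Cd4, Cd74, Cd79a, Cd163, Corin, Csf1r, Cxcl1, Cxcl2, Cxcl16, Cxcr6, Cybb, Dbp, Dll4, Angpt2, F13a1, Fkbp5, Folr2, Glul, Havcr2, Hopx, Ido1, Ifnb1, Igha, Ighm, Igkv8-30, Itgal, Itgb2, Kcnd2, Lyve1, Mrc1, Ms4a1, Mx2, Ncr1, Nova1, Oas2, Pdcd1, Pecam1, Pik3r1, Postn, Psme2, Slamf8, Slc17a7, Tigit, Timd4, Tsc22d3, Zbtb16 and 2210407C18Rik.

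The higher and lower genes differed in how bright they were. The median control intensity of the higher genes was 102, and 49.6% of them had a control mean under 100, against 43.9% of all genes. The lower genes had a median of 757, and 33.8% of them had a control mean over 1000, against 10.7% of all genes and 2.08% of the higher ones. Of the 337 higher genes, 90 (26.7%) had another gene of the same set beside them, before or after, among the measured genes of the chromosome. Of the 65 lower genes 0 had one. The sets hold 1.69% and 0.326% of all genes, and a smaller set has fewer such neighbours by position alone. The 2 counts therefore cannot be set against each other, and the share by position alone was not computed. Runs of 4 included Gbp5, Gbp7, Gbp3 and Gbp2b on chromosome 3, Gbp8, Gbp9, Gbp4 and Gbp11 on chromosome 5, H2-DMa, Psmb9, Tap1 and Psmb8 on chromosome 17, and Trim12a, Trim12c, Trim30a and Trim30d on chromosome 7. Genes of such families resemble each other in sequence and may share probe signal, so their members are not separate measurements with certainty.

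The interferon-inducible GTPases had the highest median difference of all lists. All 10 measured members were past the gap and all 10 rose, with a median difference of 2.55, against -0.03 over all genes; 1.69% of all genes were past the gap in this direction. Irgm1, a GTPase of the IRG family that acts in the clearance of intracellular microbes, read 416.9, 378.2 and 341.1 in control, 5987.5 and 2198.9 in the PlGF hearts, and 376.4, 350.7 and 318.1 on the arrays labelled PlGF/RGS4. Iigp1, another IRG GTPase, read 409.3, 504.3 and 317.4, then 3849.7 and 2618.1, then 304.1, 351.5 and 259.0. Both PlGF hearts were far above every other array for both genes. The guanylate binding proteins (Gbp), which bind to the vacuoles of microbes, were all past the gap as well, 8 of 8 measured. Gbp4 read 401.2, 362.7 and 240.8 in control and 2984.0 and 1545.6 in the PlGF hearts, a difference of 2.71 ± 0.33 (SE; limma adjusted p = 0.0178). Gbp8 differed by 2.62 ± 0.35 (limma adjusted p = 0.0201) and Gbp11 by 2.57 ± 0.33 (limma adjusted p = 0.0201). The widest gap of all named genes, 4.74, belonged to BC023105, which is annotated as a pseudogene. It read 154.1, 201.8 and 119.0 in control and 5984.9 and 5432.1 in the PlGF hearts, so that here both PlGF hearts were alike.

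**Figure D2:**
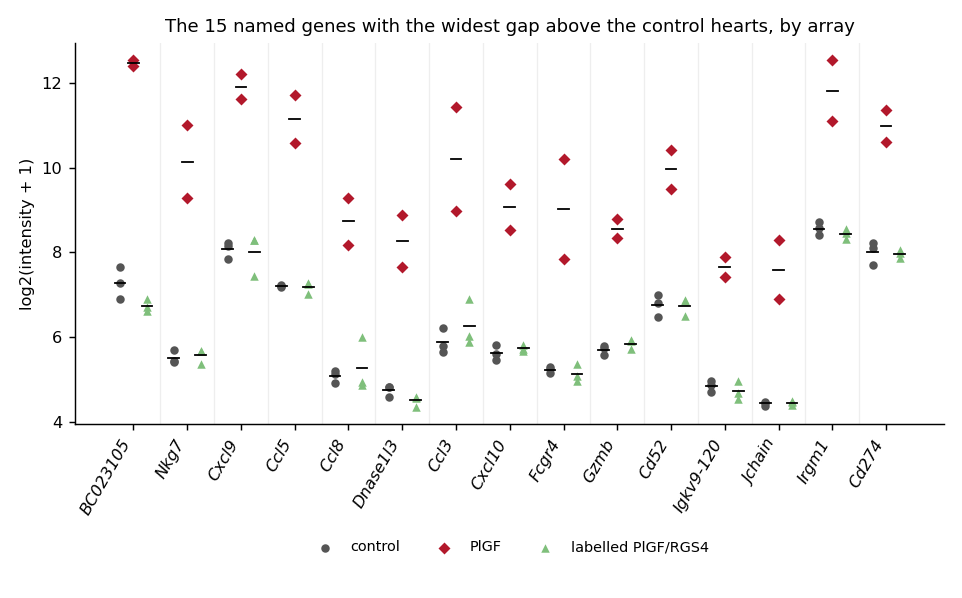
log2(intensity + 1) on each array for the 15 named genes with the widest gap above the control hearts, ordered by gap from left to right. Grey circles are control (n = 3), red diamonds PlGF (n = 2) and green triangles the arrays labelled PlGF/RGS4 (n = 3), and black bars are group means. Every PlGF value lies above every other value of its gene, by a gap from control of 4.74 for BC023105 down to 2.39 for Cd274.

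Antiviral genes of the interferon response followed. Of 31 measured, 20 were past the gap, 15 rose and 0 fell, with a median difference of 1.33. Ifit3 and Ifit2, which bind foreign RNA, differed by 2.46 ± 0.25 (SE; limma adjusted p = 0.0131) and 2.19 ± 0.41 (limma adjusted p = 0.0425). Irf7, a factor that amplifies type I interferon, read 204.2, 192.2 and 220.4 in control, 1434.4 and 651.3 in the PlGF hearts, and 200.8, 220.4 and 185.6 on the arrays labelled PlGF/RGS4. Zbp1, a sensor of nucleic acids that can start cell death, read 103.8, 104.4 and 84.6, then 924.7 and 272.6, then 95.2, 118.2 and 101.4. Both PlGF hearts were above all other arrays for either gene, and control and the arrays labelled PlGF/RGS4 overlapped. For other members PlGF replicate 2 stayed close to control. Mx2, a GTPase that blocks viruses, differed from the control mean by 1.13 in replicate 1 and 0.08 in replicate 2, and Oas2, which makes the activator of RNase L, by 0.88 and 0.14.

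Among the transcription factors that carry interferon signals, 6 of 16 measured were past the gap and 5 rose. Irf1, an early interferon target, read 348.3, 351.4 and 286.0 in control, 2088.8 and 1051.4 in the PlGF hearts, and 296.8, 329.0 and 334.1 on the arrays labelled PlGF/RGS4. A second probe set of Irf1 differed by 0.49 between PlGF and control, with a gap of 0.28. Irf8, a factor of macrophages and dendritic cells, rose by 2.05 ± 0.30 (SE; limma adjusted p = 0.0249), and Stat4, which transmits interleukin-12 signals in T and NK cells, by 2.29 ± 0.42 (limma adjusted p = 0.0418). Ciita, the master activator of class II genes, read 73.9, 77.7 and 75.7 in control and 350.9 and 131.8 in the PlGF hearts, with a difference of 1.49 ± 0.34 that missed the threshold (limma adjusted p = 0.0657). Of the cytokines and their receptors, 3 of 20 were past the gap and 2 rose. Ifng, which encodes interferon gamma, read 48.6, 43.6 and 45.9 in control, 247.7 and 92.0 in the PlGF hearts, and 49.6, 52.5 and 45.8 on the arrays labelled PlGF/RGS4. Both PlGF hearts were above the others, and the difference of 1.69 ± 0.34 (SE) had a limma adjusted p of 0.0526. Ifnb1, which encodes interferon beta, differed from the control mean by -0.04 in PlGF replicate 1 and -0.10 in replicate 2.

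The promoters of the higher genes were searched for the letters of known interferon elements. The RefSeq windows (GRCm38.p6) run from 250 bases before to 50 bases after a start site and were found for 250 of the 337 higher and 49 of the 65 lower genes. The first motif, GAAANNGAA on either strand, is the core bound by IRFs. It was present in 24.3% of 305 windows of higher genes, 8.96% of 67 windows of lower genes and 7.84% of all 19112 windows of measured genes. Per gene these shares were 27.6%, 12.2% and 9.20%. The second motif, TTCNNNGAA, is the palindrome bound by STAT factors, and it was present in 11.1%, 7.46% and 7.68% of the windows, or 13.6%, 10.2% and 9.0% of the genes. The 2 motifs overlapped in 2 windows of higher genes and in 25 of all windows. By list, the first motif was present for 5 of 5 interferon-inducible GTPases and 12 of 21 antiviral genes with a window, and for 6 of 22 chemokine and receptor genes, 3 of 12 class I genes, 3 of 14 genes of cytotoxic T and NK cells, 1 of 7 class II genes and 1 of 13 T cell genes. A match of these letters is a description of the sequence, and no binding was measured.

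The stretches that follow show such matches before the start site for 7 of the 15 higher genes with the widest gaps, and for Irf1. Each is written 5′ to 3′ on the strand of the gene, with the motif in capitals and 10 bases on either side. A motif that lies on the opposite strand appears as its reverse complement.
Nkg7, chr7:43436908-43436936, + strand, STAT motif: ccccaaggtcTTCCAGGAAaccagttgtc
Cxcl9, chr5:92328236-92328264, - strand, IRF motif: ccgtttatgtGAAATGGAAgtagaacatg
Ccl3, chr11:83649399-83649427, - strand, IRF motif: cagccccggaTTCCATTTCctcatctgct
Cxcl10, chr5:92349084-92349112, - strand, IRF motif: tcacgctttgGAAAGTGAAacttacctca
Fcgr4, chr1:171018843-171018871, + strand, IRF motif: ggtgtttctgGAAAAGGAAactggtgaga
Irgm1, chr11:48871426-48871454, - strand, IRF motif: tcaagaaataGAAACCGAAactgattctc
Cd274, chr19:29367352-29367380, + strand, IRF motif: actgggtggcTTCGGTTTCacagacagcg
Irf1, chr11:53769914-53769942, + strand, STAT motif: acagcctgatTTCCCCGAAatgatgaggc
The Cxcl10 and Irf1 matches lie 213 and 90 bases before the start site.

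Chemokines, the proteins that guide leukocytes, held 15 of 30 measured genes past the gap, and 14 rose. Cxcl9 read 283.9, 297.4 and 227.6 in control, 4752.5 and 3135.9 in the PlGF hearts, and 314.1, 172.6 and 312.2 on the arrays labelled PlGF/RGS4. Ccl5, made by T and NK cells among others, read 146.3, 148.5 and 145.1, then 3376.6 and 1525.2, then 151.5, 128.9 and 154.2. For both genes the PlGF hearts were far above all other arrays, which lay close together for Ccl5 and less so for Cxcl9. The ligands of monocytes differed more among animals: Ccl2 read 104.2, 133.1 and 124.2 in control, 899.5 and 387.9 in the PlGF hearts, and 119.2, 305.1 and 137.8 on the arrays labelled PlGF/RGS4, so that replicate 2 of the last group was also above control. Its difference between PlGF and control had a limma adjusted p of 0.0501. Receptors were past the gap too. Ccr2, the receptor of Ccl2 on monocytes, read 34.1, 38.8 and 30.7, then 272.8 and 148.1, then 29.5, 37.5 and 33.9. Cxcr6, a receptor of activated T cells, and its ligand Cxcl16 both rose (limma adjusted p = 0.0201 and 0.0349). The chemokines that draw neutrophils were near control in both PlGF hearts, with differences of -0.03 and -0.09 for Cxcl1 and 0.05 and -0.02 for Cxcl2.

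Markers of T and NK cells were past the gap in 8 of 22 and 11 of 18 cases, and 11 and 10 rose, with median differences of 0.73 and 1.07. Their summed intensity was 1229.0 to 1246.7 in control, 3659.5 and 1989.0 in the PlGF hearts and 1167.0 to 1200.8 on the arrays labelled PlGF/RGS4 for T cells. For cytotoxic T and NK cells it was 640.6 to 669.2, then 3941.0 and 1857.0, then 621.3 to 669.7. Bright probe sets weigh most in such sums, and of these markers Nkg7 alone read 2058.7 and 618.2 in the PlGF hearts. The receptor complex of T cells was among them: Cd3g read 29.6, 28.8 and 29.6 in control, 478.2 and 127.1 in the PlGF hearts, and 25.6, 24.7 and 24.5 on the arrays labelled PlGF/RGS4. Cd8a and Cd8b1, the coreceptor of cytotoxic T cells, rose by 2.21 ± 0.37 and 2.10 ± 0.29 (SE; limma adjusted p = 0.0362 and 0.0227). Cd4, the coreceptor of helper T cells, read 67.6, 78.0 and 73.5 in control and 118.7 and 105.6 in the PlGF hearts, above control but short of the gap of 0.5. Cd2, an adhesion protein of T and NK cells, was alike in both PlGF hearts, at 112.4 and 114.1 against 52.9, 49.9 and 54.5 in control.

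Genes of killing showed the widest gaps in this list. Nkg7, a protein of cytotoxic granules, read 50.9, 42.2 and 41.4 in control, 2058.7 and 618.2 in the PlGF hearts, and 49.8, 40.3 and 49.8 on the arrays labelled PlGF/RGS4. Gzmb, the granule protease granzyme B, read 52.3, 54.6 and 46.6, then 438.6 and 324.1, then 59.4, 51.6 and 58.5. Neither gene overlapped between PlGF and any other array. Smaller differences were found for Gzma (1.13 ± 0.12 SE), for Ctsw (1.19 ± 0.10), a protease of cytotoxic cells, and for Klrk1 (1.51 ± 0.17), the activating receptor NKG2D (limma adjusted p = 0.0144, 0.00522 and 0.0152). Ncr1, a receptor of NK cells, read 24.0, 26.1 and 25.7 in control and 50.4 and 70.3 in the PlGF hearts. Receptors that restrain T cells differed as well. Pdcd1, which encodes PD-1, read 38.1, 38.4 and 31.4 in control and 179.8 and 70.0 in the PlGF hearts (limma adjusted p = 0.0558). Its ligand Cd274 (PD-L1), which interferon gamma induces in many cell types, read 297.1, 272.6 and 208.4, then 2640.3 and 1560.4, then 253.2, 264.8 and 230.9 on the arrays labelled PlGF/RGS4. Havcr2 and Tigit encode the restraining receptors TIM-3 and TIGIT and differed by 1.83 ± 0.47 and 1.68 ± 0.38 (limma adjusted p = 0.0827 and 0.066).

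**Figure D3:**
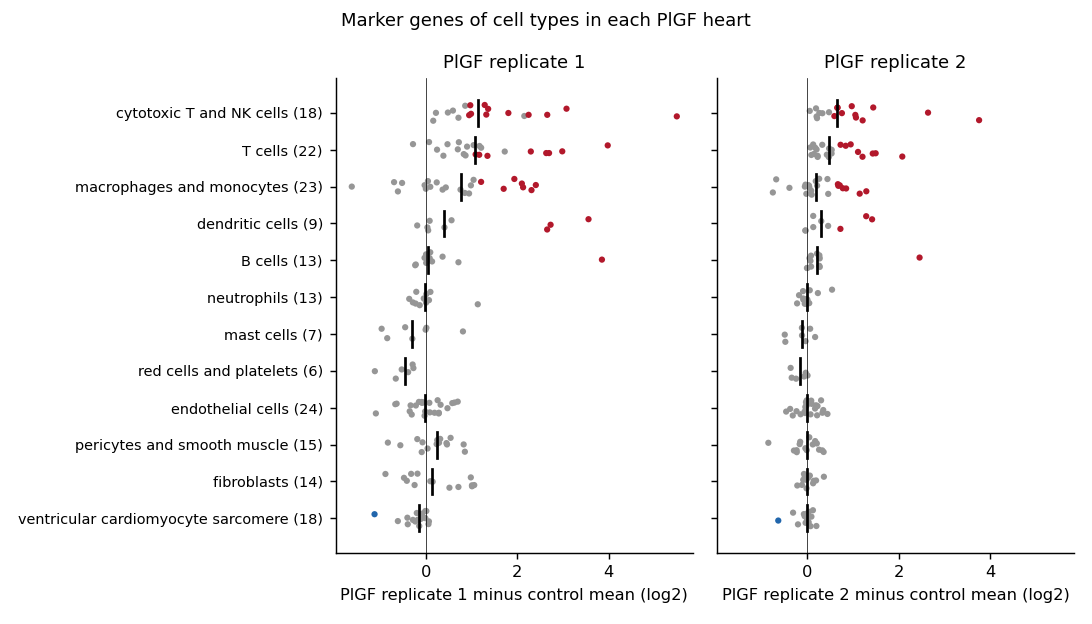
Difference from the control mean in PlGF replicate 1 (left) and PlGF replicate 2 (right), in log2, for each marker gene of 12 cell types. Each point is a gene, red and blue points are genes above and below the control range by 0.5 or more on both PlGF arrays, and black bars are the medians of the lists. The red points lie in the leukocyte lists, from 11 of 18 for cytotoxic T and NK cells to 1 of 13 for B cells, and the lists of neutrophils, mast cells, endothelial cells, pericytes and fibroblasts hold none. Over all genes 1.69% were above the gap, and a short list can hold none at that share.

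B lymphocytes and antibody genes did not move together. Of 13 B cell markers 1 was past the gap, Jchain, which encodes the joining chain of secreted antibodies. It read 19.8, 21.2 and 20.7 in control, 310.9 and 117.4 in the PlGF hearts, and 21.4, 21.1 and 20 on the arrays labelled PlGF/RGS4. The defining marker Cd79a read 28.1 and 29.7 in the PlGF hearts, within the control range of 28.1 to 30.2. Ms4a1 (CD20) read 24.1 and 27.2 against 19.1 to 24.5. Of 12 immunoglobulin genes measured, a family chosen after its values were seen, 4 were past the gap, Jchain, Igha, Igkv9-120 and Igkv10-96. Igha, the constant region of IgA, read 35.9, 32.7 and 34.2 in control and 173.6 and 336.1 in the PlGF hearts. Igkv9-120, a variable segment of the kappa chain, read 24.9, 30.1 and 28.2 in control and 234.6 and 169.3 in the PlGF hearts. Igkv8-30, another segment, read 23.6 and 50.4 in the PlGF hearts against 14.1 to 17.6 in control, whereas Ighm, the constant region of IgM, read 96.0 and 111.0 against 95.7 to 96.1. Igha and Igkv8-30 were higher in PlGF replicate 2, the reverse of most genes described here. A second probe set of Igha was also past the gap, by 1.66. Over all genes past the gap, this held for 7 of 13 other probe sets of higher genes and 0 of 8 of lower genes. The 13 belong to 10 genes, and most of the 7 belong to Ccl19, some of them with identical values.

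Presentation of antigen was covered at several steps. For class I molecules, which show peptides to cytotoxic T cells, 8 of 13 genes were past the gap and 7 rose. B2m, the common light chain, was bright in every heart and read 5952.8, 5794.6 and 5448.2 in control, 9840.9 and 9162.0 in the PlGF hearts, and 5853.1, 5763.3 and 5339.6 on the arrays labelled PlGF/RGS4. The peptide transporter gene Tap1 read 260.3, 203.8 and 183.8, then 2156.6 and 846.4, then 235.1, 245.1 and 182.6. The 3 inducible proteasome subunits, Psmb8, Psmb9 and Psmb10, all rose, with a median difference of 2.11. None of the 14 constitutive subunits measured (Psma1 to Psma7 and Psmb1 to Psmb7) was past the gap or called, and their median difference was 0.06. The shares over all genes were 1.69% past the gap above and 1.79% that rose. Psme2, a subunit of the proteasome activator, rose (limma adjusted p = 0.0322).

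Class II molecules, which show peptides to helper T cells, had 8 of 11 genes past the gap, 8 that rose, and a median difference of 2.19. H2-Ab1 read 787.3, 658.9 and 603.0 in control, 6829.7 and 2694.1 in the PlGF hearts, and 357.9, 259.5 and 469.8 on the arrays labelled PlGF/RGS4. H2-Aa read 829.5, 803.7 and 744.7, then 6028.9 and 2542.2, then 449.7, 296.8 and 581.1. The invariant chain Cd74 read 1051.7, 1062.3 and 1051.7, then 7518.1 and 3108.5, then 622.4, 383.2 and 765.6. For these 3 genes PlGF was above control and the arrays labelled PlGF/RGS4 were all below it, although limma called neither H2-Ab1 nor any other gene lower in that group. H2-DMa, which loads peptides, and Ctss, the protease cathepsin S that trims the invariant chain, rose by 2.58 ± 0.46 and 2.38 ± 0.35 (SE; limma adjusted p = 0.0401 and 0.0247).

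Macrophage and monocyte markers were divided. Of 23 measured, 7 were past the gap and 4 rose, with a median difference of 0.44. Lyz2, the lysozyme of myeloid cells, read 1988.1, 2014.4 and 1903.4 in control, 4541.7 and 3125.5 in the PlGF hearts, and 1787.6, 2286.7 and 1619.5 on the arrays labelled PlGF/RGS4. Plac8, a gene of recruited monocytes, read 17.5, 22.2 and 22.2, then 91.2 and 51.6, then 21.8, 21.1 and 18.5, and Ms4a7 rose by 1.78 ± 0.35 (SE; limma adjusted p = 0.0474). Adgre1 (F4/80), a general macrophage marker, was past the gap at 262.3, 287.1 and 254.6 in control and 1172.1 and 428.4 with PlGF (limma adjusted p = 0.086). Some genes known from resident tissue macrophages, for which no separate list was drawn up, were not raised. Lyve1 read 1098.2, 1252.8 and 1458.2 in control and 775.0 and 783.8 in the PlGF hearts, and Cd163 read 272.0, 258.3 and 255.8 in control and 181.6 and 198.9 in the PlGF hearts. Both were below the control range in both PlGF hearts (limma adjusted p = 0.0633 and 0.0626), while Mrc1 and Cbr2 differed from the control mean by 0.23 and 0.02 and by -0.03 and 0.03. Csf1r, the receptor for the growth factor of all macrophages, read 517.8, 550.0 and 530.3 in control and 959.5 and 604.3 in the PlGF hearts. Others of this kind pointed elsewhere, with differences of 0.36 and 0.21 for Folr2, 0.94 and 0.26 for Timd4, and -0.62 and -0.02 for F13a1, none of them past the gap or called.

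Fc receptors and their adaptors, through which antibody-coated targets are taken up, had 5 of 8 genes past the gap and 3 that rose. Fcgr4 read 37.9, 37.0 and 34.3 in control, 1184.8 and 226.8 in the PlGF hearts, and 30.0, 40 and 33.0 on the arrays labelled PlGF/RGS4. Tyrobp, an adaptor of myeloid and NK receptors, rose by 1.39 ± 0.22 (SE; limma adjusted p = 0.0299). In complement, 6 of 13 genes were past the gap and 3 rose. C1qb, part of the recognition molecule that macrophages make, read 1102.9, 1108.3 and 1154.4, then 4013.2 and 1896.3, then 919.3, 1150.5 and 991.6 (limma adjusted p = 0.0579). Cfb, a protease of the alternative pathway, rose by 2.06 ± 0.26 (limma adjusted p = 0.0178). Dendritic cell genes past the gap were Itgax, Clec9a and Xcr1, 3 of 9 measured, and the last pair marks the type that presents antigen to cytotoxic T cells. Clec9a read 29.9, 25.5 and 24.5 in control, 323.9 and 66.2 in the PlGF hearts, and 22.8, 28.9 and 23.5 on the arrays labelled PlGF/RGS4, with PlGF replicate 1 well above replicate 2.

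The lists of neutrophil, mast cell and blood genes were short. None of 13 neutrophil, 7 mast cell and 6 red cell and platelet genes was past the gap or called, with median differences of -0.04, -0.17 and -0.30. Over all genes 1.69% were past the gap above and 1.79% rose, and lists this short can hold none at these shares. The summed neutrophil intensity was 516.2 to 537.0 in control, 540.5 and 529.1 in the PlGF hearts, and 523.3 to 677.6 on the arrays labelled PlGF/RGS4. Csf3r, the receptor of the neutrophil growth factor, came nearest, with 111.8 and 73.7 in the PlGF hearts against 44.2, 60.3 and 48.1 in control (limma adjusted p = 0.0837). Cpa3, a mast cell protease, read 58.8, 82.3 and 47.5 in control and 30.7 and 43.1 in the PlGF hearts.

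Outside the lists lay 210 of the 337 higher genes, with a median difference of 1.37. The families that follow were chosen after the values were seen. Of the SLAM receptors, by which leukocytes recognise each other, 7 of 9 measured were past the gap, and Slamf8 read 56.6, 57.0 and 49.1 in control and 649.5 and 257.9 in the PlGF hearts. Of the Ifi200 family of DNA sensors and relatives 5 of 9 were past the gap, and of the Schlafen family 3 of 7. The leukocyte integrin genes Itgal, Itgax and Itgb2 were past it, 3 of 5 measured of their kind. Cybb, the catalytic subunit of the NADPH oxidase of phagocytes, read 369.0, 333.5 and 335.3, then 2055.9 and 910.3, then 313.8, 370.2 and 307.5 on the arrays labelled PlGF/RGS4. Cd52, a surface peptide of lymphocytes, read 125.6, 87.5 and 111.2, then 1376.0 and 725.7, then 113.8, 117.2 and 89.5. Enzymes that interferon induces in myeloid cells were also present: Acod1, which makes itaconate, read 63.6, 69.8 and 65.8 in control and 357.2 and 223.2 in the PlGF hearts, and Ido1, which degrades tryptophan, 45.4, 42.4 and 41.5 in control and 200.2 and 86.1 in the PlGF hearts. The gene for the serum DNase Dnase1l3 read 27.1, 27.2 and 23.1, then 473.9 and 198.8, then 22.7, 19.3 and 23.

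Toll-like receptor, inflammasome and cell death genes were past the gap in 5 of 18 cases and rose in 4. Tlr1, Casp4 and Aim2 rose by 1.79 ± 0.32, 1.58 ± 0.28 and 1.25 ± 0.17 (SE; limma adjusted p = 0.0398, 0.0402 and 0.0207). Mlkl, the executioner of necroptosis, read 117.3, 113.2 and 108.4 in control, 327.6 and 197.3 in the PlGF hearts, and 112.5, 122.0 and 112.4 on the arrays labelled PlGF/RGS4. Of 37 cell cycle genes, Mki67, Top2a and Ccna2 were past the gap, none of these 3 passed the test, and the median of the list was 0.49. Top2a read 56.8, 73.4 and 56.2 in control and 273.3 and 113.3 in the PlGF hearts. A second probe set of Top2a, with a control mean of 11.4, differed by 0.12 and was not past the gap. These lists follow the leukocyte markers in order of arrays, with PlGF replicate 1 above replicate 2, and which cells carried the RNA was not tested.

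The vessel wall differed little from control beside these genes. Of 24 endothelial genes 0 were past the gap, 2 rose, and the median difference was 0.01. Over all genes 1.69% were past the gap above and 1.79% rose. Cdh5, the adhesion protein of endothelial junctions, read 3336.4, 3314.5 and 3216.6 in control, 3986.0 and 4127.0 in the PlGF hearts, and 3368.6, 3482.5 and 3612.5 on the arrays labelled PlGF/RGS4, a rise of 0.30 ± 0.05 (SE; limma adjusted p = 0.0374). Mmrn2 rose by 0.41 ± 0.07 (limma adjusted p = 0.0365), and Pdgfrb, a receptor of pericytes, by 0.39 ± 0.07 (limma adjusted p = 0.0459). Pecam1, the general endothelial marker, differed by -0.03 and -0.04 in the PlGF hearts. Of 9 genes of leukocyte adhesion to endothelium 2 were past the gap and rose, with list medians of 0.29 in PlGF replicate 1 and 0.09 in replicate 2. These were Vcam1 and Icam1, which leukocytes grip on activated endothelium and which rose by 1.09 ± 0.14 and 0.96 ± 0.12 (limma adjusted p = 0.0178 for each). Vcam1 read 357.2, 299.8 and 268.4 in control, 738.2 and 581.6 in the PlGF hearts, and 318.1, 310.0 and 323.8 on the arrays labelled PlGF/RGS4.

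Of 24 genes of sprouting vessels and the VEGF family, Pgf and Aplnr were past the gap, and Aplnr rose and Angpt1 fell. Aplnr, the apelin receptor of sprouting endothelium, read 421.8, 531.0 and 429.5, then 981.4 and 996.2, then 429.0, 367.4 and 621.2. Angpt1, a ligand that steadies vessels, read 467.2, 395.7 and 558.7 in control, 256.5 and 279.9 in the PlGF hearts, and 289.1, 356.2 and 292.6 on the arrays labelled PlGF/RGS4, with both of these groups below control. Tip cell genes such as Dll4 and Angpt2 differed by 0.34 and -0.04 and by 0.31 and 0.06.

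Matrix genes were high in PlGF replicate 1 and close to control in replicate 2. Of 18 measured, Timp1 and Tnc were past the gap, and the medians were 0.93 in replicate 1 and 0.02 in replicate 2. Timp1, an inhibitor of matrix proteases, read 137.8, 125.5 and 120.4 in control, 1537.5 and 271.1 in the PlGF hearts, and 133.8, 647.7 and 118.1 on the arrays labelled PlGF/RGS4. Tnc, the matrix protein tenascin C, read 43.2, 39.2 and 46.6, then 766.8 and 74.2, then 56.2, 169.0 and 50.2. For both genes replicate 2 of the arrays labelled PlGF/RGS4 was also above control, and neither passed the test (limma adjusted p = 0.177 and 0.173). Postn, which activated fibroblasts secrete, read 4050.1 in PlGF replicate 1 and 767.6 in replicate 2, against 732.4 to 773.8 in control. No fibroblast gene of 14 was past the gap, against 1.69% of all genes above it. Col1a1 read 899.2 and 509.4 in the PlGF hearts against 381.4, 473.1 and 495.0 in control.

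**Figure D4:**
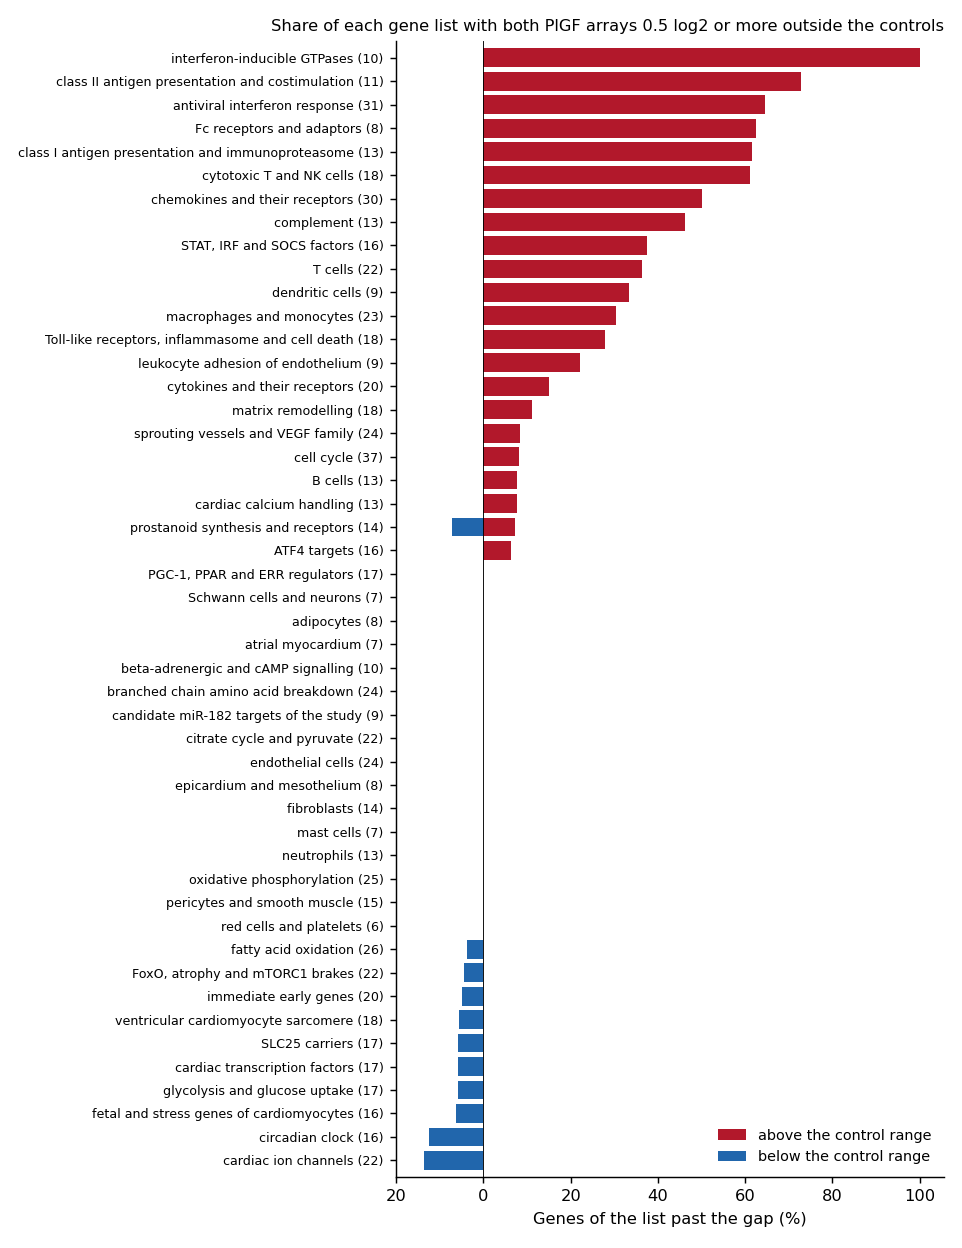
Share of each gene list, in percent of its measured genes (number in brackets), with both PlGF arrays above (red, to the right) or below (blue, to the left) the control range by 0.5 log2 or more. Bars for interferon, antigen presentation, chemokine and leukocyte lists reach farthest to the right, with 10 of 10 interferon-inducible GTPases, while the leftward bars hold 1 to 3 genes each.

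Below the controls lay 65 genes, 51 of them in none of the lists. By list, 3 of 22 cardiac ion channel genes were past the gap, 2 of 16 clock genes, and 1 each in the lists of sarcomere, cardiac transcription factor, stress, fatty acid oxidation, SLC25 carrier, glycolysis, FoxO and atrophy, immediate early and prostanoid genes. Beside the background of 0.326% these are counts of 1 to 3 genes. In these 65 genes the arrays labelled PlGF/RGS4 had a median difference of -0.48 from control, against -0.01 in the 337 higher genes and 0.003 over all genes. The same 3 controls enter both comparisons, and a gene could be chosen as lower because its controls were high, so this is no separate result. The difference on the arrays labelled PlGF/RGS4 ranged from -1.41 to 0.08 over the 65 genes.

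The 3 ion channel genes are potassium channel genes, as are most genes of that list. Over all 92 potassium channel genes measured, a family chosen after its values were seen, the same 3 were past the gap, 1 fell, and the median was -0.11. Kcnip2, a subunit that brings the channels of the fast transient outward current to the membrane, read 1881.0, 2164.9 and 1889.6 in control, 165.7 and 607.6 in the PlGF hearts, and 915.2, 529.0 and 837.0 on the arrays labelled PlGF/RGS4. Both PlGF hearts and all arrays labelled PlGF/RGS4 were below all controls, with a fall of 2.63 ± 0.49 (SE) in PlGF (limma adjusted p = 0.0429). Its partner Kcnd2, a pore-forming subunit of that current, read 848.5, 1061.7 and 1225.5 in control and 349.7 and 676.6 in the PlGF hearts, short of the gap (limma adjusted p = 0.0856). Kcnv2, a silent subunit that modifies other channels, read 326.4, 284.4 and 325.4, then 80 and 192.5, then 315.2, 208.8 and 283.4. Kcne1, a partner of the slow delayed rectifier channel, read 98.5, 112.7 and 274.0, then 42.6 and 66.0, then 66.0, 44.2 and 66.0. Control replicate 3 was thus far above the other controls for Kcne1, and neither Kcnv2 nor Kcne1 passed the test (limma adjusted p = 0.0828 and 0.117). Over 22 ion channel genes the median was -0.75 in PlGF replicate 1 and -0.08 in replicate 2.

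**Figure D5:**
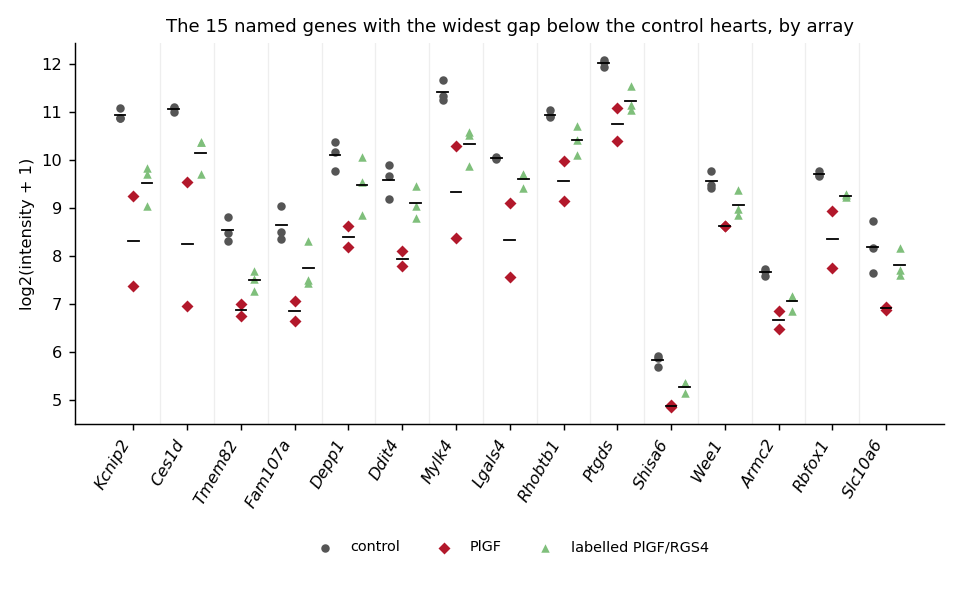
log2(intensity + 1) on each array for the 15 named genes with the widest gap below the control hearts, ordered by gap from left to right. Grey circles are control (n = 3), red diamonds PlGF (n = 2) and green triangles the arrays labelled PlGF/RGS4 (n = 3), and black bars are group means. Both PlGF values lie below every control value of the gene, by a gap of 1.63 for Kcnip2 down to 0.70 for Slc10a6.

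Enzymes and kinases followed among the widest gaps. Ces1d, a carboxylesterase that hydrolyses lipid esters, read 2195.6, 2042.4 and 2185.4 in control, 123.4 and 742.9 in the PlGF hearts, and 1327.4, 840.3 and 1327.4 on the arrays labelled PlGF/RGS4. Of 7 genes of its family measured, it alone was past the gap. Mylk4, a kinase of the myosin light chain kinase family, read 3276.3, 2426.1 and 2569.9, then 329.2 and 1248.9, then 1547.4, 933.6 and 1477.9. Both PlGF hearts and all arrays labelled PlGF/RGS4 were below every control for both genes, with PlGF replicate 1 the lowest. Neither gene passed the test (limma adjusted p = 0.0661 and 0.0736). Ptgds, which makes prostaglandin D2, read 4349.2, 4251.2 and 3954.7 in control, 1355.0 and 2173.3 in the PlGF hearts, and 2254.7, 2973.3 and 2101.7 on the arrays labelled PlGF/RGS4. Hpgds, the other synthase of prostaglandin D2, which is found in immune cells, lay above control instead, at 166.3 and 100.9 in the PlGF hearts against 67.7, 66.8 and 43.7.

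Depp1, Tsc22d3, Fkbp5, Zbtb16 and Glul lay in none of the lists. Depp1, which FoxO factors induce, read 879.2, 1333.3 and 1152.1 in control, 391.8 and 291.3 in the PlGF hearts, and 1067.7, 459.7 and 747.9 on the arrays labelled PlGF/RGS4 (limma adjusted p = 0.0501). Tsc22d3, the glucocorticoid-induced leucine zipper, read 1213.5, 957.4 and 1320.9, then 635.3 and 664.9, then 1176.9, 782.5 and 949.3. Fkbp5, a chaperone partner of the glucocorticoid receptor, read 436.0, 610.2 and 781.2 in control and 222.8 and 296.9 in the PlGF hearts. The PlGF hearts were alike for Tsc22d3, and neither gene passed the test (limma adjusted p = 0.0653 and 0.0973). Zbtb16, a transcription factor that glucocorticoids induce, read 3298.3, 4027.6 and 4076.3, then 894.8 and 2088.4, then 2333.8, 1814.5 and 1707.8. Glul, glutamine synthetase, read 4536.8, 5441.1 and 5104.0, then 3027.7 and 3101.3, then 3752.5, 4262.2 and 3285.1, and it fell by 0.71 ± 0.12 (SE; limma adjusted p = 0.034). A second probe set of Glul differed by -0.59 between PlGF and control, with a gap of 0.42.

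The clock genes Per1 and Per2, which repress their own activators, were both past the gap. Per2 read 595.9, 577.5 and 505.7 in control, 269.7 and 326.1 in the PlGF hearts, and 538.1, 336.8 and 430.2 on the arrays labelled PlGF/RGS4. Per1 read 756.1, 795.1 and 846.8, then 510.3 and 463.2, then 920.0, 516.5 and 846.8, so that PlGF/RGS4 replicate 2 was as low as the PlGF hearts. Neither passed the test (limma adjusted p = 0.0548 for Per2 and 0.124 for Per1). Dbp, an output gene of the clock, read 779.0 in PlGF replicate 1 and 1817.8 in replicate 2 against 1477.3 to 1952.9 in control. Dusp1, a phosphatase that ends MAP kinase signals, fell by 0.81 ± 0.15 (SE; limma adjusted p = 0.0425), with levels of 2854.2, 2645.1 and 3130.8 in control against 1746.9 and 1540.0 with PlGF. Wee1, a kinase that holds back mitosis, was alike in both PlGF hearts, at 391.5 and 395.0 against 871.8, 684.2 and 716.0 in control.

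Genes of fuel use and of the contractile apparatus were past the gap only singly. None of 25 genes of oxidative phosphorylation, 22 of the citrate cycle, 24 of branched chain amino acid breakdown and 17 regulators of the PGC-1, PPAR and ERR group was past it, against 0.326% of all genes below the gap. Their list medians were -0.30 to -0.68 in PlGF replicate 1 and -0.09 to -0.13 in replicate 2. Ucp3, a carrier of the inner mitochondrial membrane, read 541.8, 582.8 and 674.7 in control, 235.9 and 369.0 in the PlGF hearts, and 685.1, 253.5 and 505.6 on the arrays labelled PlGF/RGS4. Slc2a12, a glucose transporter (GLUT12), read 338.1, 333.6 and 303.6, then 199.5 and 188.2, then 232.8, 249.3 and 214.0, and it fell by 0.74 ± 0.08 (SE; limma adjusted p = 0.0144). Pik3r1, the regulatory subunit of the kinase below the insulin receptor, read 3677.9, 3908.1 and 4069.5, then 1451.5 and 2343.9, then 2584.3, 2711.5 and 2204.4. Pik3r1 fell by 1.07 ± 0.19 (limma adjusted p = 0.0393). Of 18 sarcomere genes Myom2, a protein of the M band, was past the gap at 5083.5, 5907.9 and 5354.4, then 2484.9 and 3488.7, then 4105.2, 3137.5 and 5100.4. The sarcomere list as a whole had medians of -0.15 and -0.0015 in the 2 PlGF hearts. Corin, the protease that activates natriuretic peptides, and Hopx, a regulator of cardiac transcription, were below control too, with Corin at 1525.1 and 2589.9 in the PlGF hearts against 3873.0 to 4173.0 in control and Hopx at 625.8 and 1255.7 against 1814.4 to 1908.6.

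Smaller groups completed the lower genes. Lgals4, a galectin, read 1041.9, 1059.2 and 1065.8 in control, 188.4 and 549.9 in the PlGF hearts, and 832.7, 679.5 and 819.6 on the arrays labelled PlGF/RGS4, so that the 3 groups did not overlap. Rbfox1, a splicing factor of heart, muscle and neurons, read 811.5, 877.9 and 824.9, then 215.2 and 490.5, then 622.7, 599.4 and 617.2. Shisa6 was dim, at 58.0, 50.4 and 59.4 in control and 28.7 and 27.9 in the PlGF hearts, and fell by 0.95 ± 0.09 (SE; limma adjusted p = 0.00799). Armc2 fell by 1.00 ± 0.13 (limma adjusted p = 0.0201) on its brightest probe set. Its other probe sets differed by -0.15, -0.22 and -0.10 between PlGF and control, and none was past the gap. Slc10a6, a carrier of steroid sulfates, read 288.4, 199.5 and 424.2 in control and 122.1 and 116.5 in the PlGF hearts (limma adjusted p = 0.0693). The predicted gene 2210407C18Rik, had the widest gap of the lower genes, 2.61, and read 514.6, 529.0 and 523.0, then 48.6 and 83.7, then 315.2, 386.2 and 147.6.

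A trio of genes was higher than control both in the PlGF hearts and on the arrays labelled PlGF/RGS4. These were the 3 that limma called in the latter group. Slc17a7, a vesicular glutamate transporter, read 259.4, 185.0 and 183.4 in control, 1017.6 and 909.8 in the PlGF hearts, and 754.3, 977.0 and 893.5 on the arrays labelled PlGF/RGS4. Casq1, the calsequestrin of skeletal muscle, read 229.5, 260.6 and 213.5, then 674.7 and 604.2, then 667.0, 557.7 and 752.0. Nova1, a splicing factor of neurons, read 116.1, 118.7 and 124.6, then 206.2 and 212.4, then 181.8, 171.8 and 173.7. A second probe set of Nova1 differed between PlGF and control by 0.30, with a gap of 0.06, and so was not past the gap. Both PlGF hearts and all arrays labelled PlGF/RGS4 were above all 3 controls for each, and the controls are shared by both comparisons. Leaving out single arrays removed the call on the arrays labelled PlGF/RGS4 for at least 2 of the 3 genes each time.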

How the data were processed

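Total RNA of 8 left ventricles was hybridised to Mouse Gene 1.0 ST arrays. The authors' deposited values are linear intensities from MAS5 with global scaling, per the methods, and ranged from 7.1 to 21704. The number of arrays limits the precision. In 30.3% of 28440 probe sets, 3 or more arrays held the same value, against 7.33% of the 3275 with a median of at least 1000. The cause of these repeats was not tested. The platform table gave 1 symbol to 21780 probe sets, several to 1618 and none to 5042. The brightest probe set stood for each of 19933 genes, on log2(intensity + 1). The 3 group means were fitted to all 8 arrays with limma 3.58.1 in R 4.3.3 (lmFit, eBayes), with Benjamini-Hochberg adjustment over all genes at 0.05. The labels call the arrays biological replicates. No exact permutation test of 2 against 3 arrays can give a two-sided p below 0.1, so none was run. Of 860 genes in 50 lists of cell types and functions, 784 were measured. The comparison, its rule and the lists were chosen with earlier results of these data known. Genes were named by rule, at 15 per direction with the widest gap, predicted genes left out, up to 5 per list and direction, and, for a list with none past the gap, the 2 with the smallest unadjusted limma p. The 2 genes just inside and just outside the gap were named too. The alternatives tried were quantile normalisation, median centring, a pseudocount of 16, a filter at the median level, the mean of probe sets, leaving out each array, other limma settings, a sex term, a replicate block, the methods' t-test, and gaps of 0.25 and 1.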

Additional observations from a re-analysis of the deposited data

How the results depend on the processing

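Quantile normalisation, the mean of probe sets and the trended robust prior left the counts of higher and lower genes of PlGF hearts within 1.5 times 356 and 149. Median centring gave 317 lower genes. A filter at the median level, which tests fewer genes, gave 224 higher genes and 170 above the gap. Array weights gave 126 higher and 5 lower genes, and 1 lower on the arrays labelled PlGF/RGS4. With only the 2 groups compared, 0 genes passed limma's adjusted threshold in either direction (1528 and 1581 at an unadjusted p under 0.05). The methods' t-test gave 1 higher and 3 lower after Benjamini-Hochberg adjustment (806 and 1081 unadjusted), and 0 for the arrays labelled PlGF/RGS4. The sex term gave 0 there by limma. A gap of 0.25 held 683 higher and 300 lower genes, and a gap of 1 held 115 and 7. Leaving out 1 array at a time gave 16 to 2820 higher and 1 to 3101 lower genes in PlGF, 0 to 1 higher and 0 lower on the arrays labelled PlGF/RGS4, and 337 to 1391 genes above and 65 to 810 below the gap. The fewest higher genes were left without control replicate 3 (16) and the most without PlGF replicate 2 (2820, with 1391 and 810 past the gap). Without PlGF replicate 1, 346 genes lay above and 82 below it, and without control replicate 1, 103 lay below. The arrays labelled PlGF/RGS4 do not enter the gap, and leaving out any other array cannot narrow it. The counts of genes past the gap therefore could not fall when an array was left out. Of the 85 named genes that passed, 59 to 75 no longer did without a control array or an array labelled PlGF/RGS4, 20 without PlGF replicate 1, and 17 with a pseudocount of 16. None of the 402 genes changed sign under the settings for which signs were compared. When 1 array is left out, the choice of the genes fixes their sign, so this is no separate support.

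The replicate block gave 25 higher and 2 lower genes for PlGF hearts and 0 on the arrays labelled PlGF/RGS4. Arrays of the same number had correlations of deviations from the group means of -0.217 to 0.296. The labels do not say whether equal numbers share a litter or day, and this was not tested.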
